A study of Mus musculus with 12 samples.

Results

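The 9 genes described here make and load the peptides that major histocompatibility complex (MHC) class I molecules show at the cell surface. They were taken by symbol from the 35275 rows of a count table of mouse optic nerve RNA, and each of the 9 symbols matched 1 row. All 9 passed the filter on low counts that left 18344 genes for testing.

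The study sequenced poly(A) RNA from optic nerves of mice that model NF1, neurofibromatosis type 1. The 12 libraries came from NF1 mice given carboplatin (3 libraries), a DNA-crosslinking platinum compound, NF1 mice given selumetinib (3 libraries), an inhibitor of the MEK kinases, and NF1 mice given phosphate-buffered saline (PBS, 6 libraries). All groups carry the NF1 label, and no mice without it were used here. The Nf1 allele, any promoter or Cre that drives it, strain, age, dose and schedule are not given in the sources used here. Libraries are not tied to individual mice, so p-values here cover sample-to-sample spread alone, and some of it may be technical.

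Class I molecules sit on most cells and carry pieces of the cell's own proteins to CD8 T cells. The heavy chains H2-K and H2-D (genes H2-K1 and H2-D1) pair with the light chain beta-2 microglobulin (B2m). Peptides are cut by the proteasome, in which Psmb8 and Psmb9 take the places of the standard subunits Psmb5 and Psmb6 to form the immunoproteasome. The TAP transporter (Tap1 and Tap2) moves them into the endoplasmic reticulum, where tapasin (Tapbp) holds the empty heavy chain at the transporter. Nlrc5 is the transactivator of these genes, and interferons raise the whole set in most tissues. In the resting nervous system class I levels are known to be low, with endothelial cells and microglia among the cells that carry them.

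None of the 9 genes passed an edgeR adjusted p of 0.05 in any comparison. Summed over the 9 genes in CPM (counts scaled to library size with TMM factors), the carboplatin libraries held 876.5 to 904.5 CPM, within the 780.4 to 1212 CPM of PBS 2 to 6. Selumetinib 1 and 2 held 437.5 and 449.8 CPM, the lowest sums of the 12 libraries, while selumetinib 3 held 926 CPM. PBS 1 held 2414 CPM, and it had the highest level of each of the 9 genes. In the same carboplatin libraries 5 of 10 class II genes were called lower than in PBS by edgeR, against 0.518% of all genes. With PBS 1 to 3 as the controls that count was 0.

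The libraries held 21793052 to 33375754 counts. Markers of oligodendrocytes (10 genes summing to 19400 to 96410 CPM) and of astrocytes (8 genes, 4429 to 17940 CPM) were present in all 12 libraries, which are labelled optic nerve. The label also gives the cell type as nerve cells, and 8 neuron markers summed to 1559 CPM in selumetinib 1 and 1766 CPM in selumetinib 2, against 54.9 to 493.5 CPM in the other 10 libraries. PBS 1 carried 77270 CPM of 8 skeletal muscle genes, against at most 2183 CPM elsewhere. Counts of 4 Y-linked genes were 0 in carboplatin 1, in selumetinib 1 to 3 and in PBS 1. In bulk tissue, fewer cells of a type and less RNA per cell cannot be told apart.

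Of the 9 genes, 7 lie on chromosome 17 (build mm10), where the mouse MHC is. In the annotation (GENCODE M21), H2-K1 (ENSMUSG00000061232) spans chr17:33996017-34000347 on the minus strand and H2-D1 (ENSMUSG00000073411) chr17:35262730-35267499 on the plus strand. Psmb9 (ENSMUSG00000096727, chr17:34181987-34187764, minus) and Tap1 (ENSMUSG00000037321, chr17:34187553-34197225, plus) are read outward from a shared start region, and Psmb8 (ENSMUSG00000024338, chr17:34197721-34201454, plus) and Tap2 (ENSMUSG00000024339, chr17:34203527-34216321, plus) follow. Tapbp (ENSMUSG00000024308) lies at chr17:33915899-33929292 on the plus strand. B2m (ENSMUSG00000060802) lies at chr2:122147686-122153083 and Nlrc5 (ENSMUSG00000074151) at chr8:94434356-94527272, both on the plus strand.

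Start regions of 7 of the 9 genes were found in the RefSeq promoter table (GRCm38.p6), each running 250 bases before to 50 after a start site. The following 4 are shown because the heavy chains and their light chain carry the largest counts of the set and because Tap1 shares its start region with Psmb9. Capitals mark the letters matched by the searched motifs, on either strand.
H2-K1 (chr17:34000298-34000597, minus strand): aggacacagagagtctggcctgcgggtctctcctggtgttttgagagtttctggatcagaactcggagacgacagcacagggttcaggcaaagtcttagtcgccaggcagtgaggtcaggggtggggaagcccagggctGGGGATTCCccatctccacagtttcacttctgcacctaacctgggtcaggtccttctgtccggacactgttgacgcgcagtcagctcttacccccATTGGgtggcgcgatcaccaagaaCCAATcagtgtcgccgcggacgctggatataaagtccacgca
H2-D1 (chr17:35262844-35263143, plus strand): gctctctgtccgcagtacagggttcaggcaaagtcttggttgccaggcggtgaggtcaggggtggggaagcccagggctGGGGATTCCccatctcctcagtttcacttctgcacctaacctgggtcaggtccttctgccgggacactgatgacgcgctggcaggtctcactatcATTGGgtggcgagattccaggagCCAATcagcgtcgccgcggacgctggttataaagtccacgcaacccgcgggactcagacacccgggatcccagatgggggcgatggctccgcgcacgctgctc
B2m (chr2:122147437-122147736, plus strand): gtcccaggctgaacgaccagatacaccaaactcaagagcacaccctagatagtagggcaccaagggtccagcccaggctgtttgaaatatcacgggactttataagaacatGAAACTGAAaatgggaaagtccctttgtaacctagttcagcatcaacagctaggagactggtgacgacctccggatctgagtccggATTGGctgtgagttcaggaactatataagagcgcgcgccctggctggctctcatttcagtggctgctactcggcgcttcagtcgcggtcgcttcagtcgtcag
Tap1 (chr17:34187306-34187605, plus strand): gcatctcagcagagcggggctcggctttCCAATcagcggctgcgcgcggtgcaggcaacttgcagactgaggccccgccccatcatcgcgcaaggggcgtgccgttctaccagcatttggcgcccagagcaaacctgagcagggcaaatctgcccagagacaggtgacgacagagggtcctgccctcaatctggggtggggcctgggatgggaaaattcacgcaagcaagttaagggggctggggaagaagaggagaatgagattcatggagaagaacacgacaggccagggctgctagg

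Both heavy-chain windows hold the same NF-kB motif match, GGGGATTCC, which begins 111 bases before the H2-K1 start and 171 bases before the H2-D1 start. The motif searched was GGGNNTTCC, on both strands, and 5.72% of the 27025 promoters in the table hold it. B2m holds GAAACTGAA, a match to the interferon-stimulated response element searched as GAAANNGAA (8.57% of promoters), 139 bases before its start. Psmb8 holds TTCCCAGAA, a match to the gamma-activated site TTCNNNGAA (8.47%), 97 bases before its start. CCAAT boxes, searched as CCAAT and present in 37.9% of promoters, were found in 6 of the 7 windows, and TGACGT, the CRE core (7.64%), in none. The start sites of Tap1 and Psmb9 are 226 bases apart on opposite strands, so their windows overlap and the CCAAT box printed for Tap1 is the one that lies 8 bases before the Psmb9 start. A match describes letters only, and its absence says nothing about the factor.

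Divided by the length of their exons, the 9 genes kept a wide spread of levels. In CPM per kilobase of exon, B2m was at 328.5 ± 42.0 in carboplatin, 243 ± 112 in selumetinib and 416.5 ± 141.5 in PBS (SD, n = 3, 3 and 6). H2-D1 was next at 91.4 ± 0.604 in carboplatin, 50.6 ± 25.5 in selumetinib and 121 ± 70.7 in PBS, and then H2-K1 at 55.6 ± 5.67, 38.7 ± 18.7 and 91.1 ± 72.8 in the same order of groups. Tapbp followed at 32.7, 23.9 and 38.8 and Tap2 at 10.2, 6.94 and 11.8. The transactivator Nlrc5 was lowest, at 0.438 ± 0.0697 in carboplatin, 0.534 ± 0.396 in selumetinib and 0.908 ± 0.363 in PBS. Below Tap2 came Psmb8 (6.01, 3.43 and 9.36), Tap1 (3.61, 2.52 and 4.95) and Psmb9 (2.13, 2.25 and 4.41). In PBS the means of Tap1 and Psmb9 differed by less than either SD, 3.47 and 3.62, while those of Psmb8 and Tap1 differed by less than the SD of Psmb8, 8.72, and by more than that of Tap1.

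**Figure D1:**
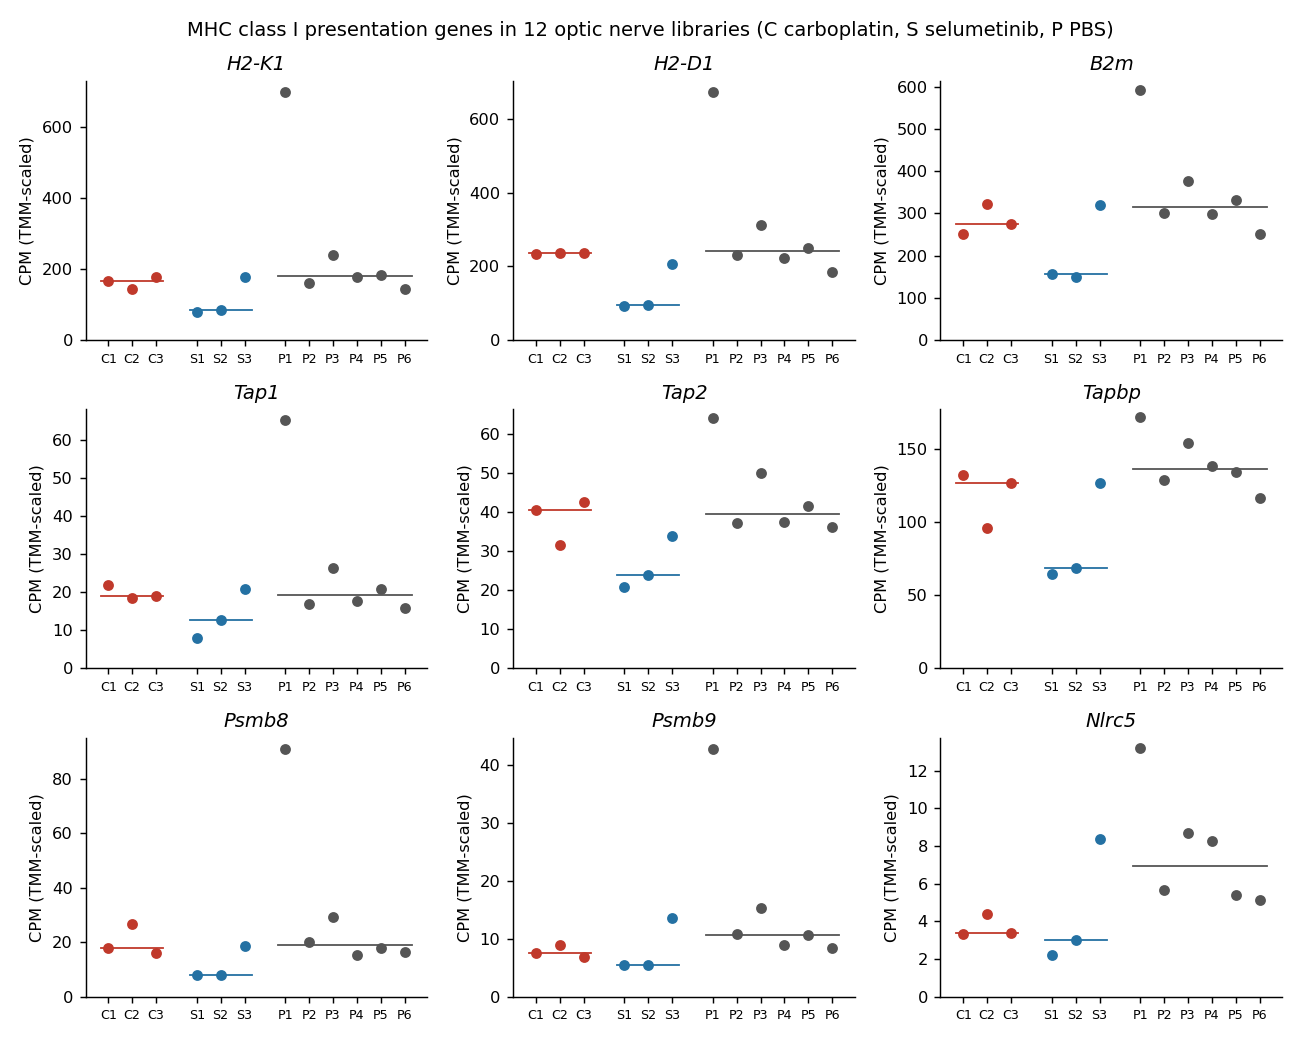
Level of each of the 9 class I genes in every library, as CPM scaled with TMM factors on a linear axis that starts at 0. Points are libraries (C carboplatin 1 to 3, S selumetinib 1 to 3, P PBS 1 to 6) and lines are group medians. PBS 1 is the highest point in all 9 panels, and selumetinib 1 and 2 lie below selumetinib 3 in all 9.

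The heavy chain gene H2-K1 was at 167, 145 and 177 CPM in carboplatin 1 to 3 and at 80.0, 84.2 and 177 CPM in selumetinib 1 to 3. In PBS 1 to 6 it was at 699.5, 161, 239.6, 177, 184.5 and 145 CPM. The carboplatin values lay within the span of PBS 2 to 6, and selumetinib 1 and 2 lay below every other library.

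H2-D1, the other classical heavy chain, was nearly equal in carboplatin 1 to 3, at 234, 236 and 237 CPM. It was at 91.3, 94.0 and 206 CPM in selumetinib 1 to 3, and at 674, 229.9, 312, 222, 250.6 and 184.5 CPM in PBS 1 to 6. H2-D1 was the single member whose carboplatin libraries all lay above all selumetinib libraries, as they did for 20.9% of all genes tested.

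B2m, the shared light chain, was at 250.7, 322 and 275 CPM in carboplatin, at 157, 149.7 and 320.4 CPM in selumetinib, and at 592, 300, 376, 298, 331 and 252 CPM in PBS. Its carboplatin values overlapped those of PBS, and selumetinib 3 lay within the PBS values.

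Among the loading genes, the transporter subunit Tap1 was at 21.8, 18.6 and 18.9 CPM in carboplatin, at 7.85, 12.7 and 20.9 CPM in selumetinib, and at 65.1, 16.9, 26.3, 17.6, 20.9 and 15.9 CPM in PBS. Its partner Tap2 was at 40.7, 31.7 and 42.6 CPM in carboplatin, at 20.8, 23.97 and 33.9 CPM in selumetinib, and at 64.2, 37.2, 50.1, 37.5, 41.6 and 36.2 CPM in PBS. Tap2 was the single member whose selumetinib libraries all lay below all PBS libraries, as they did for 2.7% of all genes. Tapbp, the tapasin gene, was at 96.4 to 133 CPM in carboplatin, at 64.7 to 127 CPM in selumetinib and at 117 to 172 CPM in PBS, so its groups overlapped.

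Of the immunoproteasome subunits, Psmb8 was at 18.02, 26.9 and 16.03 CPM in carboplatin, at 8.03, 8.02 and 18.7 CPM in selumetinib, and at 90.9, 20.2, 29.2, 15.3, 17.9 and 16.4 CPM in PBS. Psmb9 was at 7.62, 8.89 and 6.88 CPM in carboplatin, at 5.56, 5.50 and 13.6 CPM in selumetinib, and at 42.8, 10.9, 15.3, 8.96, 10.6 and 8.40 CPM in PBS. Carboplatin 1 and 3 lay below all PBS libraries for Psmb9, and carboplatin 2 lay among the lower ones.

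The transactivator Nlrc5 was at 3.36, 4.40 and 3.41 CPM in carboplatin, at 2.19, 3.02 and 8.38 CPM in selumetinib, and at 13.2, 5.66, 8.69, 8.24, 5.40 and 5.11 CPM in PBS. It was the single member whose carboplatin libraries all lay below all PBS libraries, as they did for 5.23% of all genes.

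Carboplatin against PBS addressed the effect of the platinum drug on the nerve. In the edgeR quasi-likelihood fit, with p-values adjusted over all tested genes (Benjamini-Hochberg), 0 of the 9 class I genes passed, while 2.09% of all genes did. At an unadjusted p under 0.05 the lower count was 1 of 9, which was Nlrc5, against 8.43% of all genes. All 9 fold changes were negative, with a median log2 fold change of -0.46 against -0.11 over all genes. DESeq2 called 0 of 9, against 8.99% of all genes, and limma voom with quality weights called 1 lower, Nlrc5, against 12.6% of all genes.

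The fitted log2 fold change of Nlrc5 was -1.05 ± 0.45 (SE) with an edgeR adjusted p of 0.276, and that of Psmb9 was -1.05 ± 0.56 with 0.379. For H2-K1 it was -0.71 ± 0.51 and for H2-D1 -0.41 ± 0.42. Those of B2m, Tap1, Tap2, Tapbp and Psmb8 lay between -0.64 and -0.21. Without PBS 1 the median of the 9 was -0.16, that of all genes -0.03, and Tap1 (0.0044) and Psmb8 (0.02) had turned to the other side of 0, while Nlrc5 was at -0.85 and Psmb9 at -0.49. With PBS 4 to 6 as the controls the median was -0.04 and 4 of 9 were positive. Without PBS 1, selumetinib 1 and selumetinib 2, which share the estimate of the spread, Nlrc5 fell by 0.86 on the log2 scale, the 1 call among the 9, against 7.5% of all genes called lower.

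**Figure D2:**
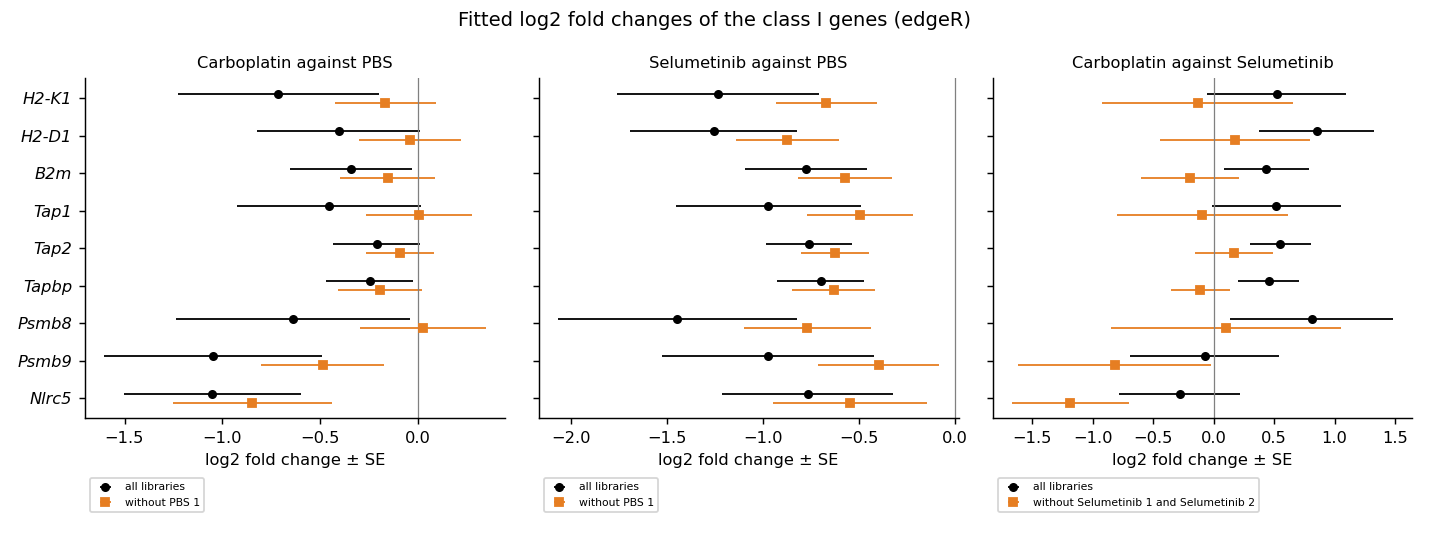
Fitted log2 fold changes (x axis) with their SE (bars) for the 9 class I genes in each comparison, with all 12 libraries (black) and without PBS 1, or without selumetinib 1 and 2 in the right-hand panel (orange). Without PBS 1 the points of both drugs against PBS lie nearer to 0 for all 9 genes, and without selumetinib 1 and 2 the median between the drugs is -0.11.

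Selumetinib against PBS set the MEK inhibitor beside the controls. PBS 2 to 6 had Y-linked counts, while PBS 1 and selumetinib 1 to 3 had none. An effect of the drug therefore cannot be fully told apart from a difference that goes with Y-linked counts. By edgeR 0 of the 9 genes passed, as did 0.0% of all genes. At an unadjusted p under 0.05, 6 of 9 were lower (H2-K1, H2-D1, B2m, Tap2, Tapbp and Psmb8), against 10% of all genes (1835 of 18344). All 9 fold changes were negative, with a median log2 fold change of -0.97 against -0.09 over all genes. Without PBS 1 the median was -0.63, against -0.01 over all genes. With PBS 4 to 6 as the controls it was -0.52, against 0.01 over all genes. In that fit 2 of 9 were lower at an unadjusted p under 0.05 by edgeR, against 1814 of 17832 genes.

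The fold change of Tap2 had the smallest adjusted p of the 9 by edgeR, 0.103, with a log2 value of -0.76 ± 0.23. H2-D1 was at -1.26 ± 0.44 (adjusted p 0.132), H2-K1 at -1.24 ± 0.53, Psmb8 at -1.45 ± 0.62 and Tapbp at -0.70 ± 0.23. B2m was at -0.78 ± 0.32, Tap1 at -0.97 ± 0.48, Psmb9 at -0.97 ± 0.55 and Nlrc5 at -0.77 ± 0.45.

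Whether these genes passed rested on selumetinib 3 and on the tool. Without selumetinib 3, 5 of 9 fell (H2-D1, B2m, Tap2, Tapbp and Nlrc5), against 8.88% of all genes called lower. Without selumetinib 1 and 2 the median was -0.36, and without PBS 1 as well it was -0.04, with 4 of 9 positive. DESeq2 called 3 of 9 lower (H2-D1, Tap2 and Tapbp), against 4.08% of the genes with a DESeq2 adjusted p, and limma voom with quality weights called all 9 lower, against 26.4%. With the presence of Y-linked counts as a covariate, 6 of 9 were called lower, against 9.92%, with a median of -1.77. That fit sets the 3 selumetinib libraries beside PBS 1 and carboplatin 1. PBS 1 is the single PBS library without Y-linked counts and had the highest level of each of the 9 genes. The covariate fit was not repeated without PBS 1.

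Markers of other cells moved with selumetinib 1 and 2. The 10 endothelial markers summed to 141.5 and 195 CPM there, against 247 to 581 CPM in PBS. The 10 microglia markers summed to 575 and 488 CPM, against 449 CPM in PBS 1 and 1007 to 1186 CPM in PBS 2 to 6. The 10 oligodendrocyte markers summed to 28200 and 19400 CPM in these libraries and to 29390 to 70320 CPM in PBS. Selumetinib 3, at 287, 961 and 66420 CPM for the same lists, lay within PBS, though its microglia sum lay below PBS 2 to 6. The part of these lists in the class I levels was not tested.

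Carboplatin was also set against selumetinib. Carboplatin 2 and 3 had Y-linked counts, while carboplatin 1 and selumetinib 1 to 3 had none, so drug and Y-linked counts cannot be fully told apart here either. In the edgeR fit 0 of the 9 genes passed, while 14.0% of all genes did, and 0 of 9 had an unadjusted p under 0.05, against 31.5%. The fold changes of 7 were positive and those of Psmb9 (-0.08) and Nlrc5 (-0.28) negative, with a median of 0.52 against -0.01 over all genes. H2-D1 was at 0.85 ± 0.48 (edgeR adjusted p 0.246), and Tap2, with the smallest p, at 0.55 ± 0.25 (0.164). DESeq2 called 0 of 9, against 26.9% of all genes. Limma voom with quality weights called 7 of 9 higher, against 29.8% of all genes. Without selumetinib 3 the count was 2 (Tap2 and Tapbp), against 10.7%, and with the Y-linked covariate 2 (H2-D1 and Tap2), against 12.2%. Without selumetinib 1 and 2 the median was -0.11.

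Levels of these genes also varied among the PBS libraries. PBS 3 ranked next to PBS 1 within the group for all 9. The labels tell these libraries apart by number alone and do not say whether PBS 1 to 3 and PBS 4 to 6 are separate control sets. If each drug had its own set, drug and set cannot be told apart between the drugs. PBS 1 to 3 set against PBS 4 to 6 gave 9 positive fold changes, with a median log2 of 0.89 against 0.04 over all genes. With each of the 3 tools 0 of 9 passed, against 0.00545% of all genes with edgeR, 3.36% with DESeq2 and 0.354% with limma voom. At an unadjusted p under 0.05 the higher count was 3 of 9 (H2-K1, Psmb8 and Psmb9), against 12.3% of all genes. Psmb8 was at 1.5 ± 0.54 and H2-K1 at 1.12 ± 0.50. Without PBS 1 the median was 0.25.

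Several lists were high in PBS 1 together with class I. Its 8 muscle markers are given above. Its 9 border macrophage and monocyte markers summed to 581 CPM, against 65.2 to 126 CPM in PBS 2 to 6, its 10 endothelial markers to 581 CPM, against 247 to 331 CPM, and its 12 T and NK cell markers to 24.5 CPM, against 3.88 to 9.44 CPM. Of its macrophage and monocyte sum, Cbr2 alone held 440.5 CPM, against 5.91 to 39.2 CPM in PBS 2 to 6. The 10 microglia markers were lower in PBS 1, at 449 CPM, against 1007 to 1186 CPM in PBS 2 to 6. The 14 standard proteasome genes also summed to 2015 CPM in PBS 1, against 882 to 929.7 CPM in PBS 2 to 6. The part of these in its class I level was not tested.

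Counts of 2 genes within a library give a ratio that does not depend on scaling. The log2 ratio of Psmb9 to Psmb6, the standard subunit it replaces, was -3.52, -3.26 and -3.49 in carboplatin 1 to 3, and between -3.03 and -2.04 in the 6 PBS libraries. The groups did not overlap, and the difference of -0.80 had p = 0.0238 by a two-sided exact permutation test, the smallest that 3 against 6 libraries allow, with an adjusted p of 0.179 over 15 such tests. For Psmb8 to Psmb5 the ratio was -1.69 ± 0.42 in carboplatin and -1.35 ± 0.38 in PBS (SD, n = 3 and 6), a difference of -0.35 (exact p = 0.310). Psmb10 to Psmb7, the remaining immunoproteasome pair, differed by -0.10 (exact permutation p = 0.548).

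In selumetinib the ratio of H2-D1 to B2m was -0.78, -0.67 and -0.63, and in PBS between -0.45 and 0.19. All 3 selumetinib libraries, selumetinib 3 included, lay below all PBS libraries. The difference of -0.41 had the smallest exact permutation p the design allows, 0.0238, and an adjusted p of 0.179. H2-K1 to B2m differed by -0.27 (exact permutation p = 0.143). Psmb8 to Psmb5 was -2.93, -2.96 and -1.53 in selumetinib, a difference from PBS of -1.12 (exact permutation p = 0.0714). Between carboplatin and selumetinib, where 3 against 3 libraries allow no p under 0.1, none of these 5 ratios reached an adjusted p under 0.298.

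**Figure D3:**
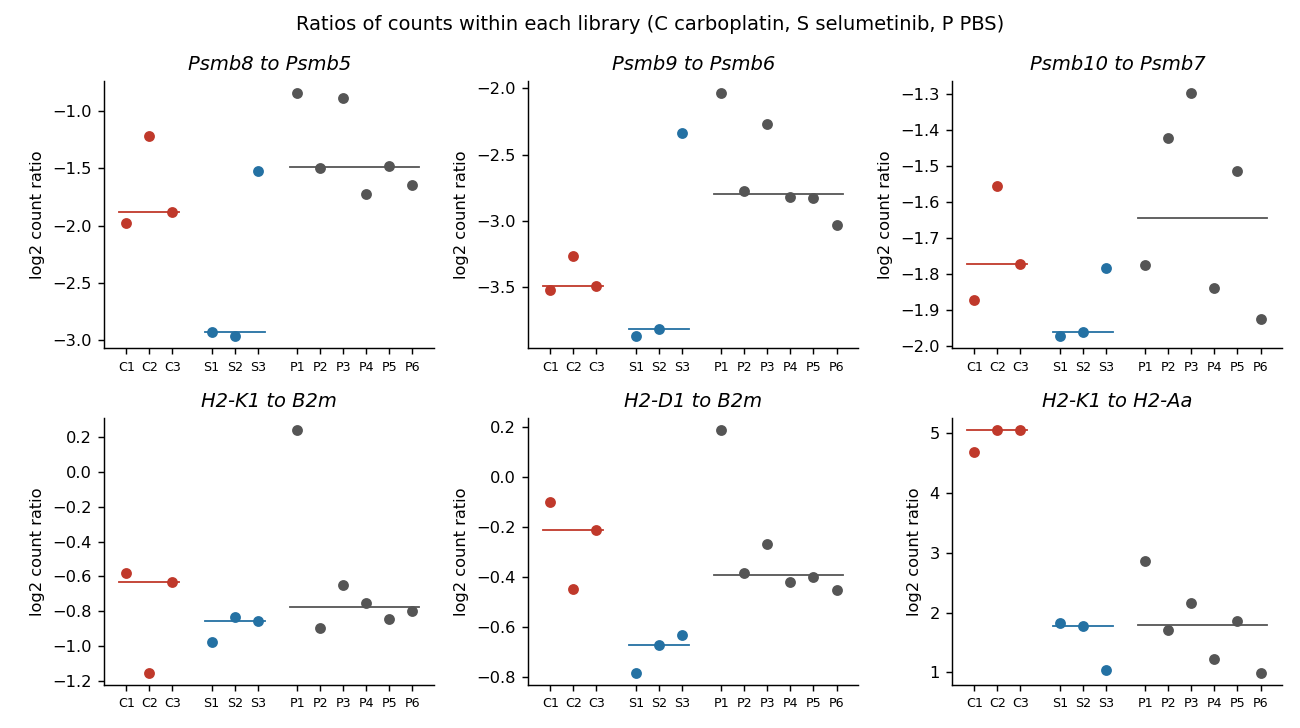
Log2 ratios of counts within each library (y axis, not starting at 0) for 6 gene pairs. Points are libraries (C carboplatin, S selumetinib, P PBS) and lines are group medians. For Psmb9 to Psmb6 the 3 carboplatin libraries lie below all PBS libraries, for H2-D1 to B2m the 3 selumetinib libraries do, and for H2-K1 to H2-Aa the 3 carboplatin libraries lie above all others.

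The wider class I machinery was read from lists written with earlier results of these data known. Shares of all genes not yet given bear on the list counts. For selumetinib against PBS DESeq2 called 13.7% in either direction. Limma voom called 16.9% higher for carboplatin against PBS and 28.9% higher for selumetinib against PBS, and 28.8% lower between the drugs. Between the drugs edgeR called 5.65% higher and 8.35% lower. Of 11 loading and trimming partners 0 passed by edgeR in carboplatin against PBS (unadjusted 2 lower, DESeq2 1 lower, limma voom 3 lower), with a median of -0.26. Calr, the chaperone calreticulin, had the smallest p, at 239 ± 20.5 CPM in carboplatin and 413 ± 110 CPM in PBS (SD, n = 3 and 6; log2 -0.79 ± 0.23, edgeR adjusted p 0.109). Calr also differed among the controls, at 372, 293 and 293 CPM in PBS 1 to 3 and 553.5, 499.7 and 469 CPM in PBS 4 to 6. It had the smallest edgeR p of the list between these PBS libraries as well. In selumetinib 0 of 11 passed (1 lower unadjusted, 0 by DESeq2, 1 higher and 4 lower by limma voom), led by Erap1, a peptide-trimming peptidase, at -0.48 ± 0.20. Psmb10, the remaining immunoproteasome subunit, was at 27.4 ± 4.76 CPM in carboplatin, 26.2 ± 0.621 CPM in selumetinib and 32.8 ± 14.4 CPM in PBS.

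Of the 14 standard proteasome genes 0 passed by edgeR or DESeq2 in all 3 comparisons, with 0 at an unadjusted p under 0.05. Limma voom called 4 higher in carboplatin against PBS, 7 higher in selumetinib against PBS and 2 lower in carboplatin against selumetinib, against 16.9%, 28.9% and 28.8% of all genes. Without PBS 1, whose sum is given above, the median turned to 0.18 for carboplatin and 0.17 for selumetinib, against -0.10 and -0.08 with all libraries. The group means of the standard catalytic subunits differed by less than the SD in PBS, with Psmb5 at 64.2 ± 6.27 CPM in carboplatin, 59.3 ± 4.64 CPM in selumetinib and 71.1 ± 45.4 CPM in PBS, and Psmb6 at 83.4 ± 5.41, 75.9 ± 6.32 and 88.6 ± 42.8 CPM in the same order. Psmb7 was at 90.7 ± 8.17, 98.2 ± 4.88 and 103 ± 52.2 CPM. The smallest p fell on Psma5 for carboplatin (-0.39 ± 0.23) and on Psmb3 for selumetinib (-0.30 ± 0.28).

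Of 18 other class I and class I-like genes 15 were tested. Against PBS 0 passed by edgeR for carboplatin (3 lower unadjusted, 2 lower by DESeq2, 1 higher and 2 lower by limma voom) and 0 for selumetinib (1 higher and 5 lower unadjusted; DESeq2 called 1 higher and 3 lower, limma voom 2 higher and 8 lower), with medians of -0.33 and -0.81. H2-Q10, with the smallest p for carboplatin, had no count in any carboplatin library and at most 2.14 CPM in PBS. For carboplatin against selumetinib edgeR called 1 of the 15 higher and 1 lower, against 5.65% and 8.35% of all genes. Between the drugs, carboplatin was higher in Hfe, which encodes a class I-like protein of iron balance, at 73.3, 58.8 and 65.9 CPM, against 16.9, 13.4 and 41.5 CPM in selumetinib (log2 1.47 ± 0.34, edgeR adjusted p 0.0241). It was lower in H2-Q2, at 2.18, 0.163 and 1.17 CPM in carboplatin, against 21.2, 34.6 and 3.17 CPM in selumetinib (-4.06 ± 1.19, edgeR adjusted p 0.0448). Neither was called without PBS 1, selumetinib 1 and selumetinib 2, where 0 of the 16 genes then tested passed. Both calls were also lost on leaving out any 1 carboplatin library, selumetinib 1 or selumetinib 2, and in a fit of these 2 groups alone, and that of H2-Q2 without PBS 2, PBS 4 or PBS 5.

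Of 21 regulators of these genes 0 passed against PBS for carboplatin (2 higher and 2 lower unadjusted, 1 lower by DESeq2, 3 higher and 4 lower by limma voom) or selumetinib (1 and 4 unadjusted, 3 lower by DESeq2, 2 and 13 by limma voom). Irf1, a transcription factor of the interferon response, was at 21.6 ± 5.14 CPM in carboplatin, 16.7 ± 5.32 CPM in selumetinib and 36.7 ± 28.2 CPM in PBS (SD, n = 3, 3 and 6). Rfx5, a subunit of the factor that binds class I and class II promoters, was at 18.8 ± 2.32, 25.0 ± 7.86 and 18.3 ± 1.58 CPM in the same order. Rela, an NF-kB subunit, led for selumetinib against PBS (-0.62 ± 0.20).

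Between the drugs edgeR called 3 of the 21 regulators higher in carboplatin and 0 lower, against 5.65% and 8.35% of all genes. Rela was at 75.3, 75.9 and 75.1 CPM in carboplatin, against 28.8, 31.8 and 56.0 CPM in selumetinib (log2 0.96 ± 0.23, edgeR adjusted p 0.0248). Ifngr1, a chain of the interferon gamma receptor, was at 65.9, 60.1 and 75.8 CPM, against 29.7, 25.9 and 43.3 CPM (1.03 ± 0.24, edgeR adjusted p 0.0233). Irf2, an interferon regulatory factor, differed by 0.61 ± 0.18. All carboplatin libraries lay above all selumetinib libraries for each of the 3, as for 20.9% of all genes. The count was 0 on leaving out any 1 carboplatin library, selumetinib 1 or selumetinib 2. It was 6 without PBS 1, where edgeR called 5974 of 18112 genes. Without selumetinib 3 it was 5 higher and 1 lower, against 2029 and 2759 of 18926 genes. A fit of these 2 groups alone called 1, against 2874 of 17358 genes. Without PBS 1, selumetinib 1 and selumetinib 2, 0 of 21 were called higher and 1 lower.

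Of 23 interferon response genes 0 passed by edgeR in any comparison. For carboplatin against PBS 4 had an unadjusted p under 0.05, all lower (DESeq2 called 2 lower, limma voom 1 higher and 8 lower), with a median of -0.65. For selumetinib against PBS 11 had an unadjusted p under 0.05, all with negative fold changes, against 10% of all genes, and the median was -0.72. DESeq2 called 3 lower, against 4.08%, and limma voom 19, against 26.4%. Between the drugs 1 had an unadjusted p under 0.05, with a positive fold change, while DESeq2 called 1 higher and limma voom 14 higher and 1 lower. Ifi27 led for carboplatin against PBS (-0.80 ± 0.23), Gbp2, a guanylate-binding protein, for selumetinib against PBS (-1.06 ± 0.32), and Ifit2 between the drugs (1.09 ± 0.35). Without selumetinib 3, 15 of 23 fell in selumetinib, against 8.88% of all genes, and with PBS 1, selumetinib 1 and selumetinib 2 left out 0 of 23 did, with a median of 0.03. The list summed to 305 and 297 CPM in selumetinib 1 and 2 and to 768.5 CPM in selumetinib 3, against 593 to 1019 CPM in PBS.

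Class II genes, which present peptides from outside the cell to CD4 T cells, were set beside class I. By edgeR 5 of 10 fell against PBS (H2-Aa, H2-Ab1, H2-Eb1, the invariant chain Cd74 and the transactivator Ciita) and 0 rose, against 0.518% of all genes called lower, with a median of -2.03, while DESeq2 called 6 lower and limma voom 8. The list summed to 66.4, 59.9 and 59.5 CPM in carboplatin 1 to 3, against 323.5 to 582 CPM in PBS. H2-Eb1 was at 6.56, 6.00 and 5.61 CPM in carboplatin, against 51.1 to 97.9 CPM in PBS (log2 -3.45 ± 0.44, edgeR adjusted p 0.00334), and Cd74 was at -3.01 ± 0.43. The count was 5 without PBS 1, 5 with PBS 4 to 6 as the controls and 0 with PBS 1 to 3 as the controls, where the median was -1.87. It was 2 without carboplatin 3, with a median of -1.86, and 4 or 5 on leaving out any other single library. With PBS 2 and 3 as the controls, chosen after seeing the data, it was 0, with a median of -1.73.

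The same 5 class II genes were lower in carboplatin than in selumetinib, against 8.35% of all genes, with H2-Aa at 6.50, 4.36 and 5.34 CPM, against 22.6, 24.5 and 86.3 CPM (-3.04 ± 0.50, edgeR adjusted p 0.00983). The count was 3 without carboplatin 1, 2 without carboplatin 2, 0 without carboplatin 3, and 4 or 5 on leaving out any other single library, and the medians of these fits ran from -1.60 to -0.67. It was 3 when selumetinib 1 and 2 were both left out. In selumetinib against PBS 0 of 10 passed by edgeR or DESeq2 (1 lower unadjusted, H2-DMa at -0.61 ± 0.23; 8 lower by limma voom). Without selumetinib 3, 6 of 10 fell.

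Set within each library, the log2 ratio of H2-K1 to H2-Aa was 4.68, 5.05 and 5.05 in carboplatin, against 1.00 to 2.86 in PBS. The ratio of Nlrc5 to Ciita, the transactivators of class I and class II, was 1.87, 4.59 and 4.51 in carboplatin, against 0.48 to 1.71 in PBS. Ciita was at only 0.9069, 0.1631 and 0.1335 CPM in carboplatin 1 to 3, so these carboplatin ratios rest on few counts. Both pairs were chosen after their values were seen. The differences of 3.12 and 2.65 each had an exact permutation p of 0.0238, the smallest possible, and an adjusted p of 0.0714 over 6 such tests. In selumetinib the differences from PBS were -0.26 and -0.40 (exact permutation p = 0.595 and 0.333). Between carboplatin and selumetinib the differences were 3.38 and 3.05, each with an exact permutation p of 0.1, the smallest possible, and an adjusted p of 0.15.

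Other immune markers were set beside these levels. The 12 T and NK cell markers summed to 0.979 to 3.57 CPM in carboplatin and 2.02 to 9.41 CPM in selumetinib, against 3.88 to 24.5 CPM in PBS, and of the 10 tested, 1 (Cd8b1) fell in carboplatin against PBS. The 10 microglia markers summed to 711, 1067 and 736 CPM in carboplatin 1 to 3. In PBS 1 they summed to 449 CPM and in PBS 2 to 6 to between 1007 and 1186 CPM, so carboplatin 1 and 3 lay below PBS 2 to 6. The 9 border macrophage and monocyte markers summed to 122, 28.02 and 92.9 CPM in carboplatin, of which carboplatin 2 lay below the 65.2 to 581 CPM of PBS. Cbr2 weighed on these sums, at 65.7, 7.22 and 43.2 CPM in carboplatin and 440.5 CPM in PBS 1. Of the 9 fold changes against PBS 0 were positive, with a median of -1.14. At an unadjusted edgeR p under 0.05, 4 of the 9 were lower, against 8.43% of all genes. In both lists 1 gene fell in carboplatin against PBS. Fcrls, a microglial marker, was at 3.60, 7.59 and 2.40 CPM in carboplatin, against 7.46 to 22.3 CPM in PBS (log2 -1.91 ± 0.41, edgeR adjusted p 0.0388). Ccr2, a chemokine receptor of monocytes, was at 1.57, 0.612 and 1.10 CPM in carboplatin, against 5.40 to 17.6 CPM in PBS (-3.40 ± 0.65, edgeR adjusted p 0.0238). All 5 red blood cell markers also fell, and they summed to 12.6 to 87.0 CPM in carboplatin. Their sums were 240.4 to 1273 CPM in PBS 1 to 3 and 2174 to 7886 CPM in PBS 4 to 6. Ccr2 also differed among the controls, at 5.40 to 7.82 CPM in PBS 1 to 3 and 15.6 to 17.6 CPM in PBS 4 to 6. Of all genes, edgeR called 0.518% lower in carboplatin against PBS. The part of these markers in the class II and class I levels was not tested.

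**Figure D4:**
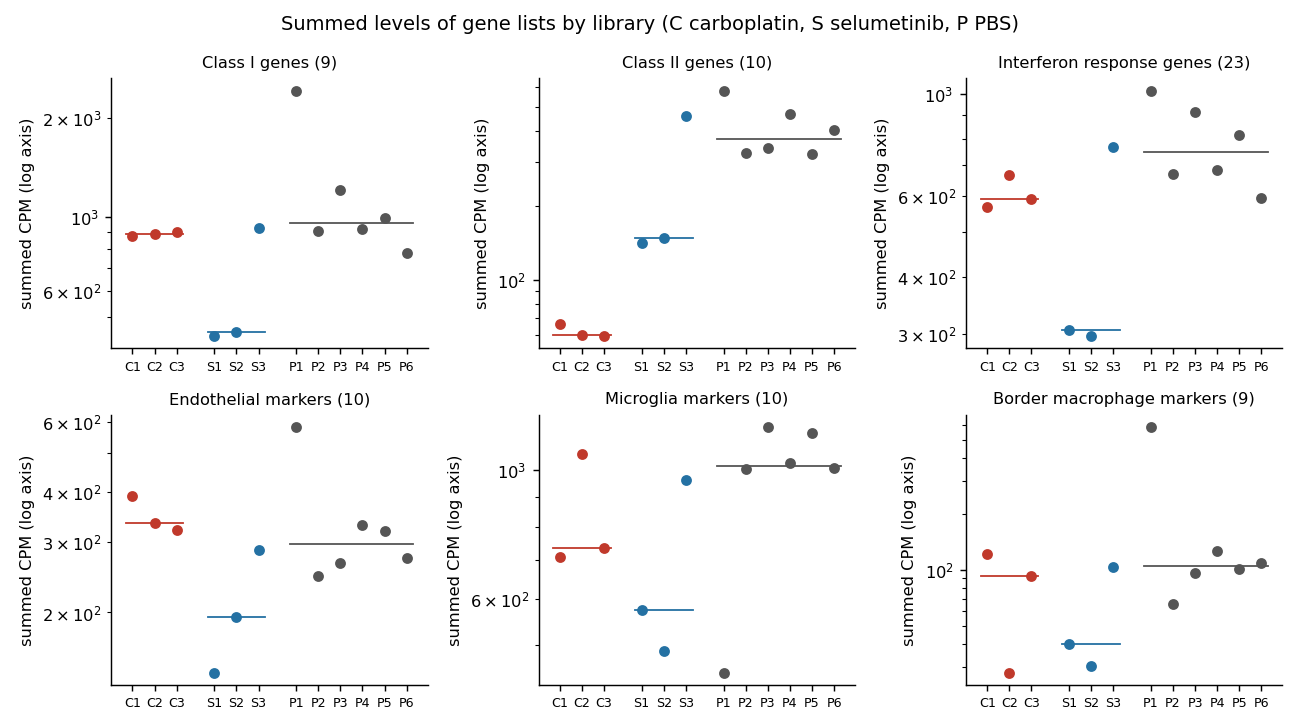
Summed CPM of 6 gene lists in each library, on log axes. Points are libraries (C carboplatin, S selumetinib, P PBS) and lines are group medians. Class II sums of 59.5 to 66.4 CPM put the carboplatin libraries below all others, while their class I sums of 876.5 to 904.5 CPM lie among PBS 2 to 6. Selumetinib 1 and 2 lie below all PBS libraries in the class I, class II, interferon, endothelial and border macrophage panels. In the microglia panel they lie below PBS 2 to 6 and above PBS 1.

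The 9 genes varied together. Over the 12 libraries, Pearson r of log2 CPM between members ran from 0.73 to 0.97 over 36 pairs, with a median of 0.90, and over the 11 libraries without PBS 1 from 0.63 to 0.97, with a median of 0.86. These points share groups, library scaling and tissue makeup, so they are a description. The tested genes whose log2 CPM lay closest to the mean profile of the 9 were Irgm1, an interferon-induced GTPase (r = 0.98, Spearman 0.96), Adamtsl5, Oasl2 (0.97), Zbp1, Tpcn1, H2-Q4, Calcrl, Rnpepl1, Bak1 and Prickle3 (0.96). Irgm1 was at 24.8, 25.0 and 24.4 CPM in carboplatin, at 15.3, 14.8 and 29.5 CPM in selumetinib, and at 49.8, 27.6, 36.6, 24.9, 30.0 and 24.7 CPM in PBS. Irgm1, Oasl2 and H2-Q4 were also among the closest 10 without PBS 1, where Dynlt1f (0.99) and H2-T23 (0.99) led.

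Counting limits bear on some of these values. The longest protein-coding transcripts of H2-K1 and H2-D1 are 90.7% identical over 1581 aligned bases, with an identical run of 91 bases, and H2-D1 shares runs of 130 bases with H2-Q7 and 145 bases with H2-T23. How reads that fit several of these genes were counted is not given in the sources used here, so the split among them is uncertain. Tap1 and Psmb9 overlap by 212 bases on opposite strands, Tapbp overlaps Zbtb22 by 3422 bases on its own strand, Tap2 and Psmb8 overlap the antisense gene Gm20496, and B2m lies within Patl2 on the other strand (11 counts in all libraries). These overlaps were measured over whole gene spans, introns included. The counting strand is likewise unknown, so how reads within the shared bases were assigned is uncertain.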

How the data were processed

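The 12 optic nerve libraries were grouped by their treatment label. The authors deposited raw read counts per Ensembl gene. The tools named per the submitters' processing notes are STAR, HTSeq, Trimmomatic, FastQC and DESeq2, with the mm10 build. Their versions, the annotation and the strand setting are not given in the sources used here.

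Genes were kept with filterByExpr (minimum count 10, minimum total 15), given TMM factors and fitted in R 4.3.3 by the robust quasi-likelihood method of edgeR 4.0.16, in 1 model of 3 groups, at a Benjamini-Hochberg adjusted p under 0.05. CPM are TMM-scaled, with a prior count of 2 on the log2 scale. The SE printed is the absolute log2 fold change divided by the square root of the F statistic. Ratios added 0.5 to each count and were tested by exact permutation (scipy 1.17.1). Alternatives were DESeq2 1.42.0, limma 3.58.1 voom with quality weights, other scalings, filters, controls, a Y-linked covariate, the replicate number as a block and each library left out. The test was checked on simulated data with a smaller dispersion (spread between libraries) than the 0.272 fitted here and with no outlying library. Its power in the present data was not checked.

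The members and lists were chosen with earlier results of these data known. Named genes were the 9 members, the genes called in each list (at most 3 per comparison with the smallest p, or the 1 with the smallest p where none was called), Psmb5, Psmb6, Psmb7, Psmb10, Irf1 and Rfx5, and the 10 tested genes most like the members. All 5 class II genes called, Cd8b1, Fcrls and Ccr2 are named beyond that rule, after their values were seen, and 1 gene the rule names is not reported here. Of 35275 gene IDs, 34490 are in GENCODE M21 (GRCm38, equal to mm10), which gave coordinates and lengths. Libraries held 21793052 to 33375754 counts.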

Additional observations from a re-analysis of the deposited data

Results flagged for a closer look

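PBS 1 stood far above the other PBS libraries in 6 of the 9 class I genes: the gap to the next library, divided by the range of the 6, passed Dixon's 95% limit. H2-K1 was at 699.5 CPM in PBS 1, H2-D1 at 674.2 CPM and B2m at 592.2 CPM. Tap1 was at 65.1 CPM, Psmb8 at 90.94 CPM and Psmb9 at 42.75 CPM in the same library.

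The log2 count ratio of H2-K1 to B2m in PBS 1 was 0.2402 and that of H2-D1 to B2m 0.1871, both far above PBS 2 to 6. These are 8 of 14 values examined. Chance alone flags about 1 in 20 groups, and the values come from 1 library, so they are not independent.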

How the results depend on the processing

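Of 26 alternatives each against PBS, the count of class I genes called stayed at 0 except in 2 for carboplatin against PBS (1 by limma voom and 1 without PBS 1, selumetinib 1 and selumetinib 2) and 4 for selumetinib against PBS (3 by DESeq2, 9 by limma voom, 6 with the Y-linked covariate, and 0 to 5 over the fits without 1 library, 5 without selumetinib 3). For carboplatin against selumetinib it was 7 by limma voom, 2 with the Y-linked covariate and 0 to 2 without 1 library. It stayed at 0 for PBS 1 to 3 against PBS 4 to 6 in all 20.

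Of all genes, 383 were called for carboplatin against PBS. The count was 1574 by DESeq2, 5423 by limma voom, 7 with PBS 1 to 3 and 2202 with PBS 4 to 6 as the controls, 29 with PBS 2 and 3 (chosen after seeing the data), 640 with the Y-linked covariate, 3073 without PBS 1, selumetinib 1 and selumetinib 2, and 73 to 1941 without 1 library. For selumetinib against PBS, 0 were called (4410 at an unadjusted p under 0.05), with 2403 by DESeq2, 10148 by limma voom, 3 with PBS 1 to 3 or with PBS 2 and 3 as the controls, 2605 with the Y-linked covariate and 0 to 4089 without 1 library. For carboplatin against selumetinib, 2568 were called, with 4715 by DESeq2, 10749 by limma voom, 4290 with the Y-linked covariate, 516 when PBS 1 and selumetinib 1 and 2 were left out, 5 when only those selumetinib libraries were (chosen after seeing the data) and 134 to 5974 without 1 library. The cause was not tested.

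With the replicate number as a block over libraries 1 to 3 of each group, 0 class I genes were called in each comparison, and 2, 2 and 41 of all genes for carboplatin against PBS, selumetinib against PBS and carboplatin against selumetinib. The class II, regulator and other class I lists had 0 calls in each of these fits. Deviations of same-numbered libraries correlated at 0.22, 0.00012 and 0.30, at -0.14, 0.29 and 0.27, and at 0.03, 0.0096 and 0.10. The labels tie these samples by number alone, and whether same-numbered libraries share anything further was not tested.

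Without PBS 1, selumetinib 1 and selumetinib 2, where selumetinib is 1 library assumed to vary like the others, the log2 ratio of Psmb8 to Psmb5 differed by -0.079 and that of Psmb9 to Psmb6 by 0.41 for selumetinib against PBS, and by -0.17 and -1.08 for carboplatin against selumetinib.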
